A study of Mus musculus with 20 samples.

Results

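The response to interleukin 1 beta (IL-1b) was followed in mouse embryonic fibroblasts that carry an altered RelA, the NF-kB subunit that drives much of inflammatory transcription. These cells are called the knock-in below. The data are 4 of the 20 RNA-seq libraries of the study, namely unstimulated knock-in cells (0 h) and knock-in cells after 0.5, 1 and 3 h of IL-1b at 10 ng/ml. They were chosen by genotype and agent as the column names give them, not by any measured value. The cells were primary cultures from C57BL/6 embryos, starved of serum overnight, with the genotype crel-/- plus RelA-TA-KI. The meaning of TA and the residues altered are not stated in the labels. For comparison, 4 libraries came from crel-/- cells with no RelA-TA-KI allele, at 0 h and after the same times of IL-1b. The other 12 libraries, used where stated, are both genotypes after 0.5, 1 and 3 h of TNF at 10 ng/ml or of LPS, bacterial lipopolysaccharide, at 100 ng/ml. The loss of c-Rel, a relative of RelA, is thus common to both genotypes, and neither is wild type. Each condition has 1 library, and the labels name no separate cultures or embryos.

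IL-1b binds the receptor IL1R1 with its partner IL1RAP. The adaptor MyD88, the IRAK kinases and the ubiquitin ligase TRAF6 then activate the kinase TAK1, which drives the IKK complex on one side and the MAP kinases p38 and JNK on the other. IKK frees RelA from the inhibitor IκBα so that it can bind DNA and recruit the transcription machinery, while the MAP kinase branch acts on immediate early genes, which need no new protein to be transcribed. In fibroblasts the pathway is known for chemokines that attract neutrophils and monocytes, adhesion molecules and matrix-degrading enzymes.

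The 4 knock-in libraries held 10624866 to 12574135 counts. Of 45706 genes, 14023 reached 1 CPM (counts scaled to the library size) in at least 2 of the 20 libraries, and these are the genes analysed. Rela was at 80.0, 87.3, 117 and 104 CPM in the knock-in at 0, 0.5, 1 and 3 h, and Rel at 16.5, 17.5, 24.6 and 25.1 CPM. Gene-level counts cannot tell alleles apart, so these levels check neither genotype. Col1a1, the main fibrillar collagen of fibroblasts, was among the most abundant transcripts, and the 14 fibroblast markers summed to 57859 to 70524 CPM in the 4 libraries. The 15 macrophage markers summed to 4161 CPM at 0 h and to 2690, 3281 and 2923 CPM with IL-1b, so RNA of such cells was present.

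Some features set the knock-in 0 h and TNF libraries apart from the IL-1b and LPS libraries. Gm42418, a locus that overlaps ribosomal RNA sequence, took 0.965% of counts at 0 h and 3.99%, 5.91% and 7.05% at 0.5, 1 and 3 h of IL-1b. The same share was 5.38% to 7.10% in the 3 knock-in LPS libraries and 1.01% to 1.25% in the 3 knock-in TNF libraries. Mitochondrial transcripts took 1.03% of counts at 0 h and 1.39% to 1.47% with IL-1b. They took 1.31% to 1.69% with LPS and 0.72% to 1.08% with TNF. The 10 tested markers of neural and Schwann cells summed to 49.3 CPM at 0 h, 18.9 to 21.0 CPM with IL-1b, 12.4 to 20.7 CPM with LPS and 45.7 to 58.8 CPM with TNF. The 0 h library thus resembled the TNF libraries, and the IL-1b libraries resembled the LPS libraries, in these features. In crel-/- cells, against their own 0 h library, the neural and Schwann cell markers summed to 109 CPM at 0 h and 31.9 to 35.9 CPM with IL-1b, while the Gm42418 share was 1.89% at 0 h and 1.52% to 3.18% with IL-1b. Whether IL-1b or another property of the 0 h library set such differences cannot be told apart. In RNA from whole cultures, fewer cells of a type and less RNA per cell also cannot be told apart.

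The promoters of 5 genes described below are shown as context, for motifs known from these pathways. The 250 bases before the RefSeq start are given 5′ to 3′ in GRCm38.p6, the assembly that matches mm10. Capitals mark matches on either strand to a κB motif (GGG, any 3 bases, TTCC), to which NF-kB binds, or to TGACGTCA, a cyclic AMP response element, to which CREB and ATF proteins bind. Overlapping matches are merged. The κB motif was found in the same stretch of 4.65% of 32851 promoter windows and TGACGTCA in 1.55%. Cxcl1, at chr5:90890995-90891244 on the plus strand, and Cxcl2, at chr5:90903649-90903898 on the plus strand, encode neutrophil chemokines. Nfkbia, at chr12:55492648-55492897 on the minus strand, encodes IκBα. Btg2, at chr1:134079156-134079405, and Dusp1, at chr17:26508473-26508722, both on the minus strand, are immediate early genes.
Cxcl1: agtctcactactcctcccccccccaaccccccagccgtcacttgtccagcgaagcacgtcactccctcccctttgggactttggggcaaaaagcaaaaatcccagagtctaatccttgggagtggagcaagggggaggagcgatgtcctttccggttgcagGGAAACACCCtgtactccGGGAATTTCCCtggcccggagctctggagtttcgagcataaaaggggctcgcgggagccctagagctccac
Cxcl2: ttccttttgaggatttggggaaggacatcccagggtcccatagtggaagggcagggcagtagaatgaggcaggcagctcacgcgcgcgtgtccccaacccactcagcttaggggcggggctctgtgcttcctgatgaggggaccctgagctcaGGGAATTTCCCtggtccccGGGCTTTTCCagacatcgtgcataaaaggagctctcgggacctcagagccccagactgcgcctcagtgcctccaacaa
Nfkbia: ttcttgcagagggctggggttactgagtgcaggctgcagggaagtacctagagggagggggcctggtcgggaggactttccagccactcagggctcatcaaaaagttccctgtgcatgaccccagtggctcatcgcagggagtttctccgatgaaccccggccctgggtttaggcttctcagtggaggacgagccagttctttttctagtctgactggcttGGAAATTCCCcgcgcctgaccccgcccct
Btg2: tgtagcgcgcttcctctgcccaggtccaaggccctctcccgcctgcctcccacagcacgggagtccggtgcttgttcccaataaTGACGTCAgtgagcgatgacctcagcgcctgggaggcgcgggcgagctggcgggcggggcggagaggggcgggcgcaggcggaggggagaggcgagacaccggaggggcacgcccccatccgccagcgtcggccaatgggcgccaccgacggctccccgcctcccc
Dusp1: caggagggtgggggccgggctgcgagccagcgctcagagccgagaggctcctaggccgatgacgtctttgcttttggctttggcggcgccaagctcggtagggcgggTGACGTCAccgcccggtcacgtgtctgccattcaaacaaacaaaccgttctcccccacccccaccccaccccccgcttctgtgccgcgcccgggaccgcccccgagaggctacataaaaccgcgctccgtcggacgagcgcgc
Neither TGANTCA (the AP-1 motif) nor the CArG box of serum response factor was found in these 5 windows. A match describes the letters only and is not a site shown to be bound.

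Over all 14023 genes, a gene is called past the fold where its log2 difference from 0 h is at least 1 in size. With 1 library per time these differences have no test. In the knock-in, 391 genes (2.79%) were past the fold upwards and 417 (2.97%) downwards at 0.5 h. At 1 h the numbers were 452 (3.22%) and 385 (2.75%), and at 3 h they were 429 (3.06%) and 499 (3.56%). The number with at least 4 times the level, a log2 difference of 2 or more, was 70, 86 and 66 at the 3 times. Of the 739 genes past the fold upwards at any time, 158 were so at all 3 times. The 251 genes (1.79%) that were higher and 319 (2.27%) that were lower at 3 h than at 0.5 h involve the IL-1b libraries only and do not use the 0 h library.

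Most immediate early genes were higher with IL-1b in the knock-in within the first hour. Of 27 tested, 22 were past the fold upwards at 0.5 h, 19 at 1 h and 4 at 3 h, with median log2 differences of 2.87, 1.89 and 0.03. The median over all genes was 0.01 at 0.5 h. Between 0.5 and 3 h, 22 of the 27 were lower by the fold, with a median of -2.28, so this decline does not depend on the 0 h library. The same list in knock-in cells given TNF, which share the 0 h library, had medians of 2.80, 1.92 and 2.45 at 0.5, 1 and 3 h. The members past the fold were 23, 20 and 21, so at 3 h the list was high in the knock-in TNF library and not with IL-1b. The knock-in LPS library at 3 h was high as well, with a median of 1.71 (20 of 27 past the fold). In crel-/- cells at 3 h, the median was 0.69 with TNF (10 of 27 past the fold) and 0.50 with IL-1b (11 of 27). With LPS it was 1.42 there (15 of 27).

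Nr4a1 (mm10 chr15:101266846-101274792, plus strand), an orphan nuclear receptor, was at 21.0 CPM at 0 h and at 518, 301 and 6.94 CPM after IL-1b. The 0.5 h count was 24.7 times that at 0 h (95% counting interval 21.7 to 28.2), and the 3 h level lay below the unstimulated one. Its relative Nr4a3 was at 1.87, 46.3, 85.4 and 6.78 CPM, with its peak at 1 h. Fos, a subunit of the factor AP-1, was at 19.9, 259, 12.7 and 13.6 CPM, high in the 0.5 h library alone. Its paralogue Fosb was at 2.46, 77.5, 44.2 and 2.39 CPM, so it was still high at 1 h. The zinc finger factor Egr1 was at 121, 1010, 98.4 and 78.0 CPM, and Egr2 at 8.24, 119, 18.0 and 5.11 CPM. Btg2, an antiproliferative gene, was at 45.5, 751, 169 and 73.6 CPM. Later peaks were seen for Fosl1, another AP-1 subunit, at 1.19, 17.4, 27.2 and 5.75 CPM, and for Maff, a small Maf factor, at 6.03, 27.3, 47.6 and 10.8 CPM. A pair of patterns is thus present in the list, a spike at 0.5 h alone and a plateau to 1 h, and both ended by 3 h for most members.

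Among genes that limit MAP kinase signalling, 6 of 14 tested were past the fold upwards at 0.5 h, 6 at 1 h and none at 3 h. Dusp1, a phosphatase of p38 and JNK, was at 9.17, 140, 28.3 and 17.6 CPM. Dusp10, of the same family, was at 6.45, 15.4, 36.7 and 8.94 CPM and peaked later. Spry2, an inhibitor of receptor tyrosine kinase signalling, was at 51.7, 110, 44.2 and 37.7 CPM. Another early gene with a similar course was Hbegf, an EGF receptor ligand, at 11.1, 70.7, 82.3 and 13.2 CPM. Ptgs2, the inducible cyclooxygenase, was at 10.3, 158, 56.2 and 17.6 CPM. Errfi1, an EGF receptor inhibitor chosen after its values were seen, was at 31.3, 322, 255 and 55.5 CPM.

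**Figure D1:**
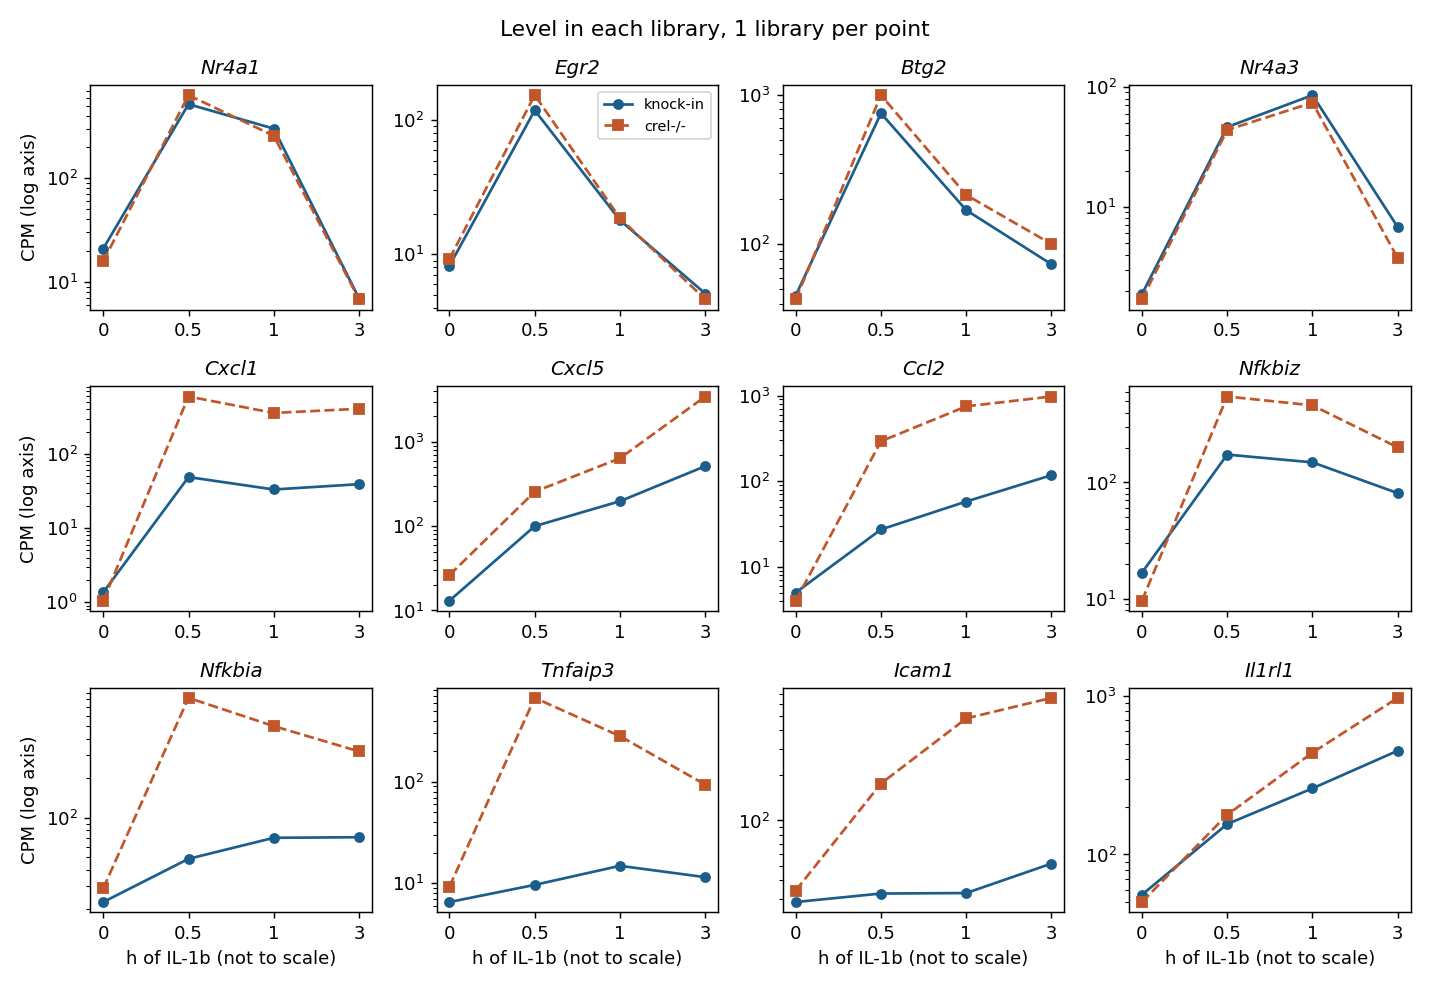
Levels in CPM on log axes for 12 genes at 0, 0.5, 1 and 3 h of IL-1b, 1 library per point, with knock-in cells as blue circles and crel-/- cells as orange squares. In the upper row the courses of both genotypes run close together, while Tnfaip3 and Icam1 reach at most 14.9 and 51.6 CPM in the knock-in.

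Neutrophil chemokines were another block, and unlike most immediate early genes they were still past the fold at 3 h. All 6 neutrophil chemokines tested were past the fold upwards at each time, with medians of 2.19, 2.40 and 1.98. In the knock-in TNF libraries, against the same 0 h library, 3, 3 and 5 of the 6 were. Cxcl1 (mm10 chr5:90891241-90893115, plus strand), a ligand of the receptor CXCR2, was at 1.36 CPM at 0 h and at 48.7, 33.1 and 39.0 CPM at 0.5, 1 and 3 h. The counts were 35.8 times (95% counting interval 21.9 to 63.1), 24.4 times and 28.7 times those at 0 h. Its level was thus reached by 0.5 h and held. Cxcl5 (chr5:90759360-90761624, plus strand), another CXCR2 ligand, instead climbed at each time, from 13.1 CPM to 100, 198 and 515 CPM, and its difference between 0.5 and 3 h was 2.36 on the log2 scale. The genes have like lengths in the deposited table, 1863 bases for Cxcl5 and 1875 for Cxcl1, so per length too Cxcl5 was the more abundant at 3 h. Cxcl2 had few counts, 3 at 0 h and 41, 34 and 21 with IL-1b. Its ratio at 0.5 h was 14.4, with a counting interval of 4.59 to 72.6. Ppbp and Cxcl15 were near 3 times their 0 h levels, Ppbp at 1.19, 3.57, 2.85 and 3.35 CPM and Cxcl15 at 9.00, 23.8, 24.0 and 23.5 CPM. Against the same 0 h library, Cxcl15 differed on the log2 scale by 0.12, 0.28 and -0.26 with TNF and by 1.18, 1.22 and 1.46 with LPS. Whether IL-1b or a property of the 0 h library set its difference was not tested.

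Among 19 other chemokines, 2, 3 and 7 were past the fold upwards at 0.5, 1 and 3 h, and 8 were higher by the fold at 3 h than at 0.5 h. Ccl2, the main attractant of monocytes, was at 5.01, 27.3, 58.0 and 118 CPM. Its 1 h count was 11.6 times that at 0 h (95% counting interval 8.85 to 15.4). Ccl7, its neighbour on chromosome 11, was at 4.59, 32.7, 43.9 and 70.0 CPM. Cxcl10, an interferon-inducible ligand of CXCR3, was lower at 0.5 h and high only at 3 h, at 9.85, 5.36, 12.5 and 34.5 CPM. Cx3cl1, a membrane-bound chemokine, was at 17.8, 23.2, 27.2 and 51.4 CPM. Ccl3 and Ccl4, which macrophages make, showed no difference past the fold, Ccl3 at 12.4, 9.29, 7.48 and 6.86 CPM and Ccl4 at 6.11, 6.34, 5.79 and 5.67 CPM.

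Of 22 cytokines, 6, 5 and 1 were past the fold upwards at the 3 times and 3, 3 and 2 downwards. Over all genes, 3.06% were past the fold upwards and 3.56% downwards at 3 h, so 1 and 2 of 22 give no direction for the list. At that time 4 of the 22 had 3 counts or fewer in both libraries. Lif, a cytokine of the interleukin 6 family, was at 4.59, 12.9, 15.2 and 8.22 CPM. Il6 itself had 0 counts at 0 h and 16, 12 and 5 counts with IL-1b, which makes its level at least 5.61-fold higher at 0.5 h against a floor of 3 counts. Il33, an alarmin, was lower in each IL-1b library, at 10.5 CPM and then 3.31, 4.01 and 3.35 CPM. Il1rl1, the gene of the interleukin 33 receptor and chosen after its values were seen, was at 55.7, 156, 261 and 451 CPM, the steady climb seen for Cxcl5.

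Most components of the IL-1 pathway stayed within the fold, as did most genes. Of 21 tested members, 1, 1 and 3 were past the fold upwards at the 3 times and none downwards. Over all genes the shares were 2.79%, 3.22% and 3.06% upwards and 2.97%, 2.75% and 3.56% downwards. Il1r1, the receptor, was at 58.6, 60.0, 89.6 and 145 CPM. Il1rn, the receptor antagonist, was at 39.7, 91.7, 88.7 and 105 CPM. Map3k8, a kinase that feeds the ERK pathway, was at 5.69, 8.58, 9.79 and 13.1 CPM. Il1rap, Myd88, Irak1, Irak2, Irak3, Irak4, Traf6, Map3k7 (which encodes TAK1), Tab1, Tab2, Tab3, Chuk, Ikbkb, Ikbkg, Peli1, Peli2, Tollip and Ube2n were within the fold at every time, between -0.53 (Tab1 at 1 h) and 0.41 (Chuk at 3 h). Il1r2 and Sigirr, which dampen the pathway, were below the expression filter.

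NF-kB subunits and the feedback inhibitors of NF-kB, which are classical RelA targets, responded in part. None of 5 subunit genes was past the fold at 0.5 h, 1 was at 1 h and 2 at 3 h. Relb was at 16.5, 19.9, 38.2 and 65.1 CPM, and Nfkb2 at 55.4, 59.7, 72.3 and 141 CPM. Nfkb1 was at 92.6, 91.4, 109 and 145 CPM, short of the fold. Of 20 feedback genes, 3, 5 and 6 were past the fold upwards, with medians of 0.03, 0.22 and 0.81.

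Nfkbiz, an atypical inhibitor that also serves as a coactivator, was the strongest of them, at 16.7, 174, 149 and 81.0 CPM. The 0.5 h count was 10.4 times that at 0 h (95% counting interval 8.97 to 12.1). Zc3h12a, an endonuclease that degrades inflammatory mRNAs, was at 5.43, 19.9, 32.4 and 44.9 CPM, and Bcl3, a nuclear IκB protein, at 7.90, 10.2, 19.1 and 37.3 CPM. Nfkbia was at 22.8, 48.6, 70.3 and 71.0 CPM, about 3 times the 0 h level at 1 h and 3 h. Tnfaip3, which encodes the ubiquitin editor A20, was at 6.54, 9.65, 14.9 and 11.5 CPM. Its 1 h count was 2.27 times that at 0 h (95% counting interval 1.73 to 3.02), and its levels at 0.5 and 3 h were within the fold. Tnip1, Cyld and Traf2 were within the fold at every time.

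Effectors, adhesion molecules and interferon-stimulated genes each had at most 3 members past the fold upwards at any time. Of 16 inflammatory effectors, 2, 3 and 3 were past the fold upwards, and 2, 2 and 3 downwards, against 2.79%, 3.22% and 3.06% of all genes upwards and 2.97%, 2.75% and 3.56% downwards. Those upwards included Ptgs2 and the metallothionein Mt2, at 31.8, 85.7, 107 and 127 CPM. Lcn2, an iron-trapping protein, had 1 count at 0 h and 0, 2 and 4 counts with IL-1b. The acute phase gene Saa3 had 0 counts in all 4 libraries. Steap4, a metalloreductase, was high at 3 h only, at 3.65, 2.50, 3.47 and 19.2 CPM. Of 5 adhesion molecules, 1, 1 and 0 were past the fold upwards, a list too short to set against the shares of all genes. Vcam1 was at 105, 128, 157 and 185 CPM and Icam1 at 28.6, 32.6, 32.8 and 51.6 CPM, both short of it. Of 32 interferon-stimulated genes, 0, 1 and 3 were past the fold upwards, against 2.79%, 3.22% and 3.06% of all genes. Counts this small are not read as a result about the list. The median differences were -0.08, 0.30 and 0.14. Irf1, the transcription factor among them, was at 29.3, 51.1, 63.9 and 62.5 CPM.

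Of 22 genes of matrix remodelling, 5, 4 and 4 were past the fold upwards. They included Has2, a hyaluronan synthase, at 6.54, 15.3, 25.0 and 14.9 CPM, and Tnfaip6, which links hyaluronan, at 14.3, 32.2, 50.8 and 25.9 CPM. The collagenase Mmp13 was at 8.07, 5.27, 6.94 and 12.4 CPM, within the fold. Of 16 p53 targets, 6, 3 and 0 were past the fold upwards, Plk2 at 106, 346, 200 and 144 CPM and Cdkn1a, the inhibitor of cyclin-dependent kinases, at 233, 508, 411 and 349 CPM. None of 20 proliferation genes was past the fold in the knock-in. Over all genes 2.79% to 3.22% were past the fold upwards and 2.75% to 3.56% downwards. In a list of 20 this is near the share of all genes and is not a result about the list.

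The largest difference downwards at each time was that of Ibsp. This gene, which encodes bone sialoprotein, had 133 counts at 0 h and 0, 1 and 0 counts with IL-1b. It was thus at least 42.1-fold lower at 0.5 h and 47.2-fold lower at 3 h. Its log2 differences from the same 0 h library were -2.55, -5.42 and 2.96 with TNF and -5.36, -5.96 and -5.96 with LPS. In crel-/- cells they were -4.38, -5.01 and -1.33 with IL-1b. Of the 10 tested neural and Schwann cell markers, 7 were past the fold downwards at each time, with medians of -2.14, -1.82 and -1.70. Gfap, the glial filament gene, was at 7.22, 0.447, 1.07 and 1.60 CPM, and Sox10, a neural crest factor, at 2.21, 0.357, 0.623 and 0.479 CPM. In the knock-in TNF libraries, with the same 0 h library as reference, Gfap differed by -0.10, 1.00 and 0.53 and in the LPS libraries by -3.28, -2.69 and -2.50. The part of culture composition in these differences was not tested. At 0.5 h, 256 of the 417 genes lower than at 0 h were also lower by the fold than in TNF cells of the same time, as were 181 of 385 at 1 h and 220 of 499 at 3 h. Upwards, 158 of 391, 179 of 452 and 166 of 429 genes met that stricter condition.

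**Figure D2:**
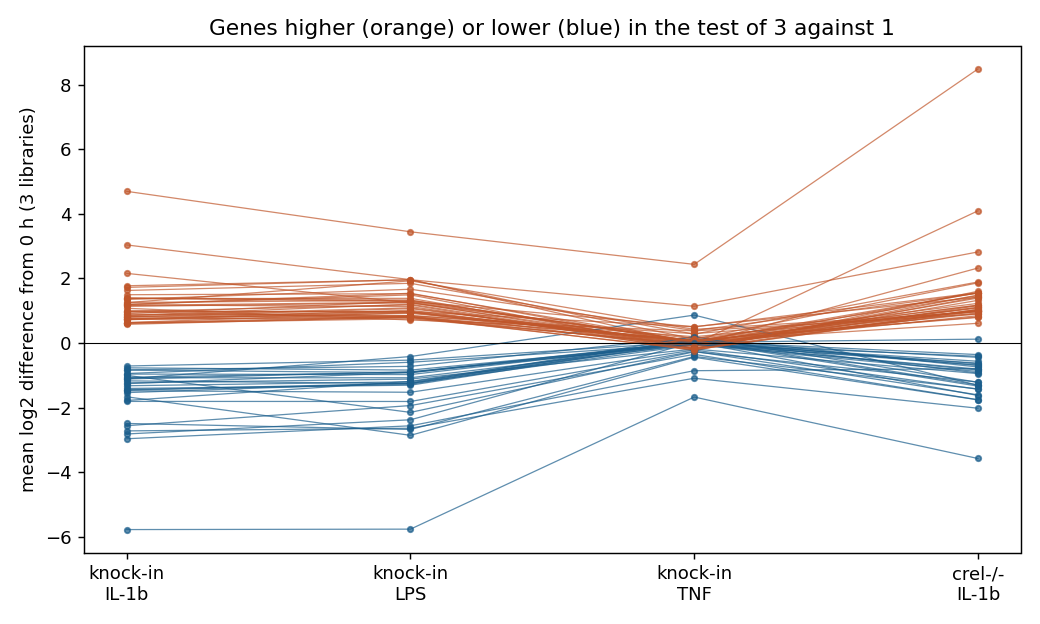
Mean log2 difference from the 0 h library of the same genotype, over 3 times, for the 69 genes called in the comparison of 3 IL-1b libraries with 1 library at 0 h, each gene joined across agents. The lines fall back close to 0 at TNF (median 0.04 for the genes called higher) and are alike in size for IL-1b and LPS (0.99 and 1.15).

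When the 3 IL-1b times were treated as replicates and compared with 0 h (edgeR quasi-likelihood test, 2 residual degrees of freedom), 40 genes rose (0.285%) and 29 fell (0.207%) at a Benjamini-Hochberg adjusted p under 0.05. All 69 changed in the same direction in all 3 libraries. The test favours genes with a like difference at each time, and no immediate early gene passed it. Cxcl1 rose by 4.88 ± 0.36 (log2, SE; edgeR adjusted p = 0.00716). Il1rn rose by 1.26 ± 0.15 (edgeR adjusted p = 0.0321). Also higher were Mt2 (1.75 ± 0.23), the opioid precursor Penk (1.63 ± 0.13), the water channel Aqp1 (1.40 ± 0.11), the chemokine Cxcl15 (1.40 ± 0.20), the laminin Lama5 (1.39 ± 0.17), the collagen Col10a1 (1.51 ± 0.20), the noncoding RNAs Malat1 (1.78 ± 0.15) and Kcnq1ot1 (2.22 ± 0.32), and Gm15675 (3.17 ± 0.41). Ibsp, Shisa3 (-3.74 ± 0.52), the water channel Aqp4 (-3.05 ± 0.34), Podxl (-3.03 ± 0.42), Fabp7 (-2.93 ± 0.43) and Ptgds (-2.69 ± 0.36), a prostaglandin synthase, fell, as did the lipoprotein genes Lpl (-1.26 ± 0.11) and Apoe (-1.16 ± 0.13).

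The test rests on few libraries. Its spread comes from the 3 IL-1b times only, so a property of the single 0 h library would not widen it. Without the 1 h library 1 gene passed, Cxcl1. With all 10 knock-in libraries in the fit 2 passed, Aqp1 (edgeR adjusted p = 0.0217) and Aqp4 (0.0354), and Cxcl1 did not (4.88 ± 2.25, edgeR adjusted p = 0.806), nor did Il1rn (0.882). Without the 0.5 h library 201 genes passed and without the 3 h library 281. The 40 genes that rose included the mitochondrial transcripts mt-Rnr2, mt-Nd2, mt-Co1 and mt-Cytb and the noncoding RNA Xist. These 40 had a median length of 8587 bases, against 3924 bases over all genes tested. Their median mean difference was 0.99 with IL-1b, 1.15 with LPS and 0.04 with TNF, and for the 29 that fell it was -1.32, -1.23 and -0.02. Cxcl1 differed with each agent, by 2.56, 1.02 and 3.72 with TNF at the 3 times. In crel-/- cells, which have their own 0 h library, 40 of the 40 and 28 of the 29 had the same sign at all 3 IL-1b times. Those 3 differences share that 0 h library, and the share of all genes with such signs was not computed. Whether IL-1b or a property of the 0 h libraries set this was not tested.

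The response was set beside that of crel-/- cells, which share no library with it. There, 542 genes (3.87%) were past the fold upwards at 0.5 h, 790 (5.63%) at 1 h and 1117 (7.97%) at 3 h, so the number grew with time while that of the knock-in did not. Downwards the numbers were 334 (2.38%), 417 (2.97%) and 1015 (7.24%). The genotypes shared 218, 293 and 292 of the genes past the fold upwards. These are 55.8%, 64.8% and 68.1% of the knock-in genes and 40.2%, 37.1% and 26.1% of the crel-/- genes. Across all genes Pearson's r between the differences of the genotypes was 0.60, 0.62 and 0.61 at the 3 times, a description over genes that share 2 libraries on each side.

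**Figure D3:**
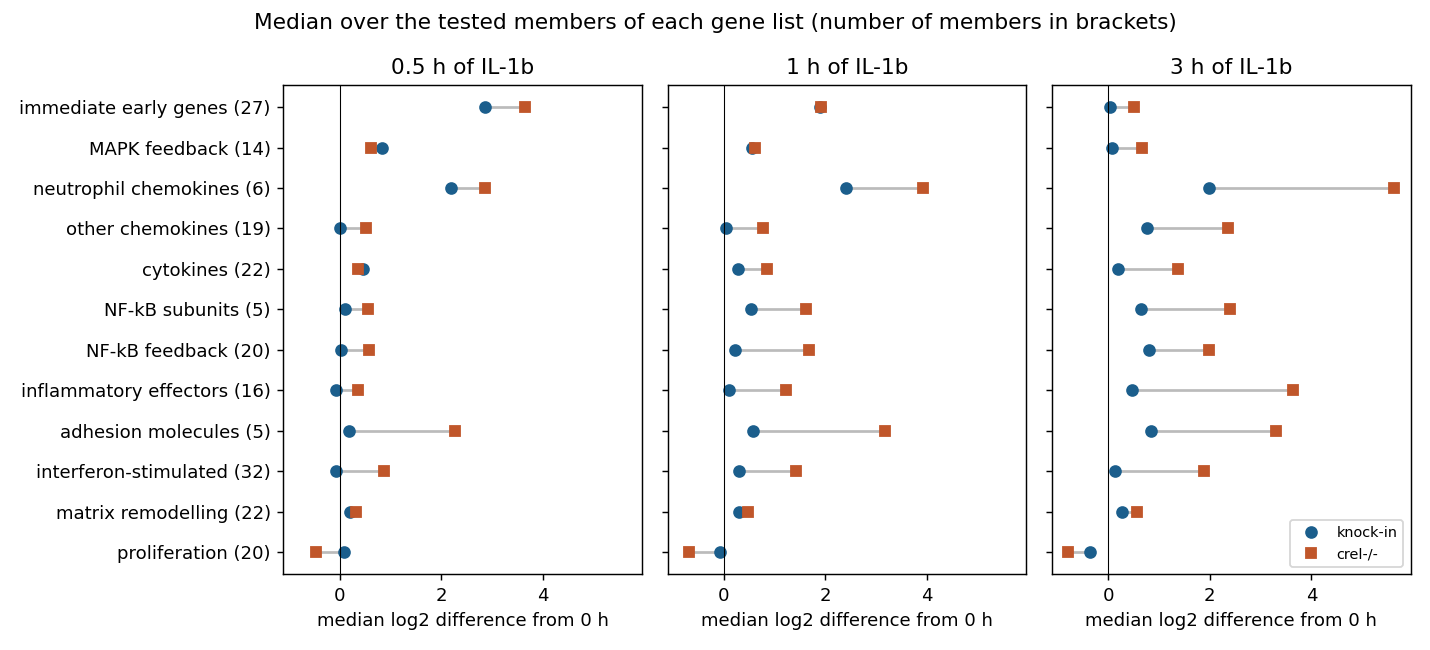
Median log2 difference from 0 h over the tested members of 12 gene lists, knock-in (blue circles) and crel-/- (orange squares), at 3 times of IL-1b. Immediate early genes lie apart at 0.5 h (2.87 and 3.65) and close at 1 h (1.89 and 1.91), and inflammatory effectors lie far apart at 3 h (0.47 and 3.65).

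Most immediate early genes were past the fold in both genotypes at 0.5 and 1 h, with a smaller median in the knock-in at 0.5 h. In crel-/- cells 26, 18 and 11 of 27 were past the fold upwards, with medians of 3.65, 1.91 and 0.50. The difference in the knock-in was within 0.5 log2 of that in crel-/- cells for 16 of 27 at 0.5 h, 19 of 27 at 1 h and 11 of 27 at 3 h, and it was the larger of the 2 for 3, 10 and 7 of them. Nr4a3 was at log2 differences of 4.50 and 5.38 in the knock-in and 4.55 and 5.30 in crel-/- cells at 0.5 and 1 h. Egr2 was at 3.82 and 4.03 at 0.5 h. Others were smaller in the knock-in, with Ier3, an apoptosis inhibitor, at 3.77 against 5.74, Junb at 3.35 against 4.62, and Maff at 2.15 against 4.35 at 0.5 h. Hbegf was larger in the knock-in, at 2.65 and 2.87 against 1.68 and 1.42 at 0.5 and 1 h.

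Chemokines differed in size. Cxcl1 was at log2 differences of 4.99, 4.43 and 4.67 in the knock-in and 8.91, 8.18 and 8.36 in crel-/- cells. Ccl2 was at 2.41, 3.48 and 4.50 against 6.12, 7.47 and 7.85. Cxcl5 was nearer, at 2.92, 3.90 and 5.28 against 3.28, 4.59 and 7.02. Ppbp and Cxcl15 were as large in the knock-in, with Cxcl15 at 1.38, 1.40 and 1.37 against 0.94, 1.09 and 1.21. Ccl20, a ligand of CCR6, had 1 count at 0 h and 0, 8 and 16 with IL-1b in the knock-in, against 2 and then 487, 811 and 511 in crel-/- cells.

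Feedback inhibitors, adhesion molecules, effectors and interferon-stimulated genes also had larger median differences in crel-/- cells. Of the 20 feedback genes, 9, 13 and 15 were past the fold in crel-/- cells. Tnfaip3 was at log2 differences of 6.15, 4.90 and 3.31 there and at 0.55, 1.16 and 0.80 in the knock-in. Nfkbia was at 4.82, 4.10 and 3.46 against 1.09, 1.62 and 1.63. Nfkbiz was at 5.81, 5.56 and 4.36 against 3.36, 3.14 and 2.26. Icam1 reached 4.26 at 3 h in crel-/- cells against 0.85, and Vcam1 3.31 against 0.82. Of the 16 effectors, 5, 9 and 16 were past the fold in crel-/- cells. Nos2, the inducible nitric oxide synthase, had 589 counts at 3 h in crel-/- cells and 0 in the knock-in. Saa3 had 362 counts against 0. Of the 32 interferon-stimulated genes, 14, 27 and 30 were past the fold in crel-/- cells, with medians of 0.87, 1.42 and 1.89. Isg15, a ubiquitin-like protein, was at 1.09, 1.67 and 1.89 against -0.04, 0.51 and 0.14.

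**Figure D4:**
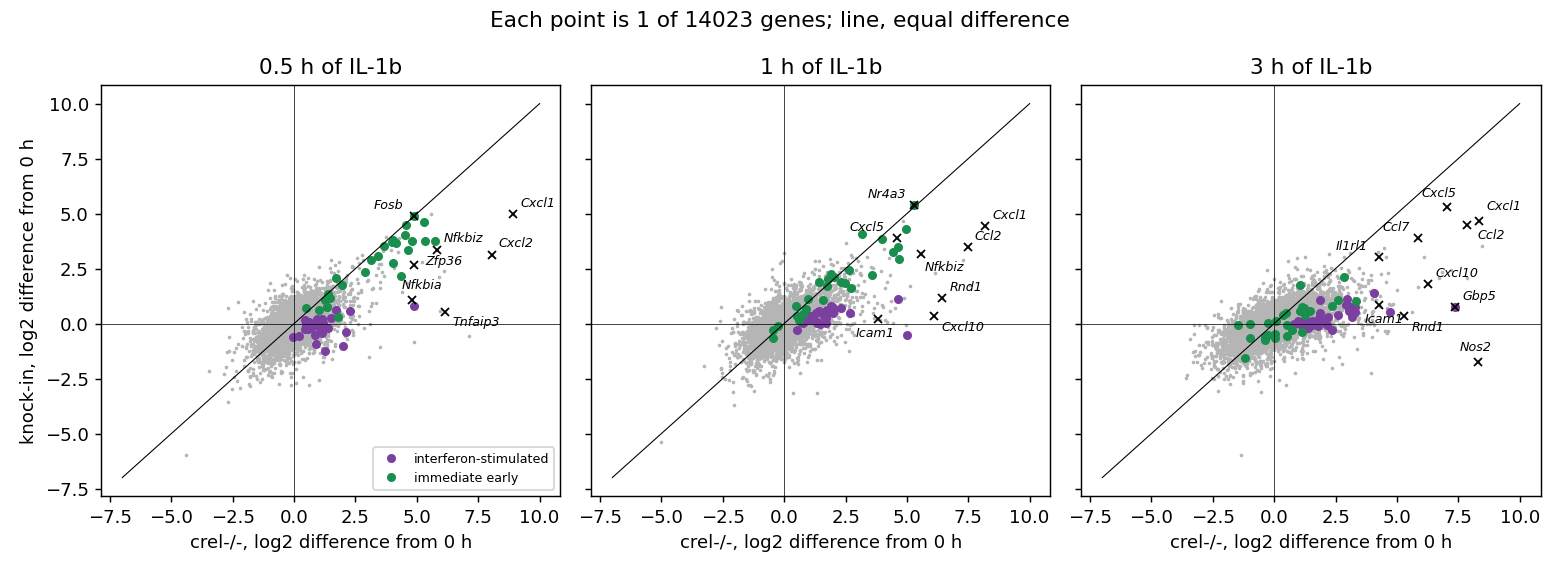
Log2 difference from 0 h in the knock-in (vertical) against crel-/- cells (horizontal) for 14023 genes at 3 times of IL-1b, with immediate early genes in green, interferon-stimulated genes in purple and other named genes as crosses. At 0.5 h 3 of the 27 green points lie above the line of equal difference, with Fosb at 4.88 and 4.86 close to it and Maff at 2.15 and 4.35 well below, while most purple points lie to the right of the line.

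The difference of the response itself was tested over the 8 libraries in a model with a term for each time, shared by both genotypes, a term for genotype and 1 for genotype by stimulation (edgeR quasi-likelihood test, 2 residual degrees of freedom). The genotypes were thus compared at matched times, and the 3 times served as replicates of their difference. Only Rnd1, a small GTPase that loosens the actin skeleton, passed, with a weaker response in the knock-in (0.00713% of genes), and none passed with a stronger one. Rnd1 (mm10 chr15:98663421-98677461, minus strand) was at 1.87, 2.86, 4.45 and 2.39 CPM in the knock-in and at 1.78, 119, 170 and 77.1 CPM in crel-/- cells. Both genotypes were alike at 0 h, and no knock-in IL-1b library came near the crel-/- ones. The difference was -5.29 ± 0.36 (log2, SE; edgeR adjusted p = 0.0426), and with all 20 libraries in the fit the adjusted p was 0.588. At an unadjusted p under 0.05, 497 genes were weaker and 284 stronger. DESeq2 called 28 weaker and 4 stronger.

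The fitted difference was below 0 for 32 of 32 interferon-stimulated genes, 20 of 20 feedback genes and 16 of 16 effectors, against 51.4% of all genes. Its median was -1.38, -1.10 and -2.43 in these lists, -0.43 in the immediate early genes and -0.01 over all genes. Each list shares the same pair of 0 h libraries. Saa3 and Nos2 had no counts in the knock-in IL-1b libraries but passed the filter, which took in all 20 libraries. For such effectors a value above 0 was hardly possible. The lists were chosen with earlier results known, so these counts describe the lists and test nothing. For the proliferation genes it was above 0 for 20 of 20, with a median of 0.49. In crel-/- cells these were lower with IL-1b (medians -0.46, -0.70 and -0.79). Bub1, a mitotic checkpoint kinase, was at -0.82, -1.20 and -1.15 in crel-/- cells and at 0.08, -0.15 and -0.36 in the knock-in.

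Which times enter decides the number called. Without the 3 h libraries, 228 genes were weaker (1.63%) and 47 stronger (0.335%) in the knock-in, with 1 residual degree of freedom and a spread shared across genes. Without the 1 h libraries the numbers were 2 and 1, and without the 0.5 h libraries 11 and 0. Rnd1 was among the genes called in each. Cxcl10, Nfkbiz, Ccl2 and Cxcl1, given below from the fit without 3 h, passed neither over all 8 libraries nor with all 20. In the fit without 3 h, 18 of 32 interferon-stimulated genes were weaker, as were 3 of 20 feedback genes, 4 of 19 other chemokines and 5 of 27 immediate early genes. Cxcl10 was weaker by -5.83 ± 0.21 (edgeR adjusted p = 2.54e-07), Nfkbiz by -2.45 ± 0.13 and Ccl2 by -3.89 ± 0.27. Cxcl1 was weaker by -3.89 ± 0.45 (edgeR adjusted p = 0.00125). In that fit 6 of 20 proliferation genes were stronger, among them Bub1 by 0.98 ± 0.18. In that fit 7 of 14 fibroblast markers were weaker, the collagens Col1a1 by -0.49 ± 0.07 and Col3a1 by -0.50 ± 0.08 among them. With all 20 libraries in the fit, 5 genes were weaker, the matrix genes Col4a1, Col4a2, Col6a3, Fmod and Sfrp2, by -0.55 (Col4a1) to -1.08 (Sfrp2). Col4a1 differed from 0 h by -0.21, -0.09 and -0.02 in the knock-in and by 0.37, 0.50 and 0.47 in crel-/- cells.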

How the data were processed

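Polyadenylated RNA was sequenced with a stranded kit, per the labels' protocols, and the submitters' processing notes name cutadapt 1.12, STAR, featureCounts 1.5.1, DESeq2 and the build mm10. The authors deposited whole-number counts per gene, not normalized. How strand and multiply matching reads were handled is not given in the sources used here, so overlapping, antisense and near-identical genes are uncertain. The deposited table also gives a gene length in bases, used only to describe genes. The filter on low values (1 CPM in 2 or more libraries) kept genes that hold 99.9% of the counts. Scaling was TMM over 20 libraries (edgeR 4.0.16, R 4.3.3), log2 values used a prior count of 2, and DESeq2 1.42.0 was an alternative. Standard errors were derived from the log2 change and its F statistic. Counting intervals are exact binomial at 95%, a count of 0 was bounded with 3 counts in that library, and both cover counting error only. The 3 counts correspond to 0.239 to 0.282 CPM of the 4 library totals. Nothing in the labels states separate cultures, so p-values measure the spread between libraries, part of which may be technical. In the comparison of 3 libraries with 1, the single 0 h library adds no spread. All of the spread there is between the 3 IL-1b times. The test between genotypes had a term for each time. Its spread is that of the genotype difference among the 3 IL-1b times, as the pair of 0 h libraries adds none.

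The conditions and the 22 gene lists were chosen with earlier results of these data known. Named genes were the 8 largest rises and 4 largest falls at each time, the strongest passing genes of each test, up to 4 members per list with the largest change, all members of the IL-1 pathway and subunit lists, and 8 chosen markers of the response. Errfi1, Il1rl1, Lpl, Apoe, Xist, the mitochondrial transcripts and the 5 matrix genes of the fit over 20 libraries were named after their values were seen. Promoters come from RefSeq (GRCm38.p6). Uncharacterised transcripts under this rule are not all described. Symbols were matched for 98.8% of identifiers. Alternatives covered the prior count, scaling, the filter, DESeq2, other sets of libraries and leaving out each time. The tests were tried on simulated data with no change between the IL-1b times, unlike the real data, so the trials do not give the error here. At a log2 difference of 1, 79.7% of changed genes were recovered in the comparison of 3 with 1 and 48.2% between genotypes. The trials had 13 and 11 false calls.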

Additional observations from a re-analysis of the deposited data

Results flagged for a closer look

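Rnd1 had a weaker IL-1b response in the knock-in than in crel-/- cells, by -5.29 on the log2 scale (edgeR adjusted p = 0.0426 for the test of that difference), and it was the only gene that passed. Sox9, a cartilage regulator, went in opposite directions: its 3 knock-in IL-1b libraries lay above 0 h (0.22, 0.55 and 0.32) and its 3 crel-/- libraries below (-0.21, -0.42 and -0.70). The mean differences were 0.807 apart. This was seen among the named genes and did not pass the test of the difference across all genes (unadjusted p = 0.0205).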

How the results depend on the processing

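Counts past the fold kept within 1.5 times of the reported ones under prior counts of 0.5 and 5 and under DESeq2 size factors. With no filter, 799, 948 and 829 genes were higher and 767, 719 and 881 lower at 0.5, 1 and 3 h, and with at least 5 CPM in 2 libraries, 179, 230 and 217 were higher and 186, 163 and 222 lower. Requiring the fold against TNF as well, a condition chosen after seeing the data, left 158, 179 and 166 higher and 256, 181 and 220 lower. In the comparison of 3 with 1, DESeq2 gave 155 higher and 71 lower, no filter 374 and 362, and all 10 knock-in libraries 1 and 1. Leaving out each time in turn gave 1 to 190 higher and 0 to 91 lower. For the difference between genotypes, DESeq2 gave 4 stronger and 28 weaker, no filter 3 and 42, and all 20 libraries 0 and 5. Leaving out each time gave 0 to 47 stronger and 2 to 228 weaker. The cause of these shifts was not tested. Among named genes recomputed, no log2 difference of at least 1 in size and no fitted change reversed its direction. Sign changes of smaller log2 differences were not recorded, and a number of genes has no direction to reverse. Where genes had few counts, as Cxcl2, Il6 and Ccl20 in the knock-in, depth limits the size of the change. No paired analysis was possible because each condition has 1 library, so no replicate numbers pair libraries. The test between genotypes matched them by time.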
